A study of Mus musculus with 39 samples.

Results

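A set of 10 genes that mark dendritic cells is described here in mouse spleen, and more briefly in liver. They are the 10 rows, of 54735 in the spleen table, whose symbol is Siglech, Ccr9, Cd209a, Itgae, Xcr1, Clec9a, Flt3, Itgax, Zbtb46 or Batf3, a rule that uses no measured value. Of the 10, 2 are taken here as markers of plasmacytoid dendritic cells (Siglech and Ccr9) and 8 as markers of conventional ones. Not every marker is exclusive to its type, Flt3 being carried by dendritic cell progenitors and their descendants. All 10 were found, and all 10 passed the filter on low values, a mean normalised read count of at least 10 over the spleen libraries.

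The spleens came from C57BL/6 mice that were 4 weeks old, of 2 labelled genotypes, wild type and knockout of SXR/PXR, the xenobiotic receptor encoded by Nr1i2. The mice had received PCB-153, a polychlorinated biphenyl that persists in tissue, at about 54 µg per kg per day through the perinatal period up to sampling, or DMSO as vehicle. The groups are wild-type vehicle (4 spleen libraries, labelled replicates 1, 3, 4 and 5), wild-type PCB-153 (5), knockout vehicle (5) and, last, knockout PCB-153 (5); liver has 5 libraries in each of the same 4 groups. The labels name neither the construction of the knockout allele nor the cells that lack it, and do not say that libraries came from separate animals, so p-values measure the spread between these libraries, which may be technical.

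Dendritic cells take up antigen and show it to T cells. The plasmacytoid type is known for making type I interferon when its endosomal receptors meet nucleic acid, and the conventional types divide into cDC1, which are specialised in showing antigen from dead cells to CD8 T cells, and cDC2, which mainly prime CD4 T cells. In spleen they lie in the white pulp, the marginal zone and the red pulp, and most descend from progenitors that need the receptor Flt3 and its ligand.

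The targeted gene did not follow the genotype labels in spleen. Nr1i2 had 0.567 ± 1.13 normalised counts in wild-type vehicle (SD, n = 4) and 0.446 ± 0.998 in wild-type PCB-153 (n = 5), against 55.5 ± 7.90 and 52.1 ± 5.58 in the spleens labelled knockout (n = 5 each). In liver it was 1572 ± 178 and 1395 ± 390 in wild type against 714 ± 192 and 862 ± 215 in knockout (n = 5 each). Which exons those reads cover was not given by gene-level counts, and the spleen groups are therefore called labelled knockout. Spleen libraries held 16.1 to 29.52 M reads and liver libraries 15.23 to 28.65 M. Among the spleens, labelled-knockout PCB-153 replicates 1 and 4 stood apart: 8 summed pancreas genes reached 8098 and 63439 normalised counts there against 488 to 898 in the other 17, and these libraries lay at 56.3 and 67.5 on the first principal component, with all others between -23.1 and 11.9. Labelled-knockout vehicle replicate 4 had 11519 summed hepatocyte counts, against at most 3698 elsewhere. The called results are also given without these libraries, and results that did not pass where leaving the libraries out bears on them.

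The positions are those of GRCm38 (mm10). Siglech, a receptor of the Siglec family taken here as a plasmacytoid marker, lies on chromosome 7 at 55768178 to 55778925. Ccr9, the receptor for the gut and thymus chemokine Ccl25, lies on chromosome 9 at 123678439 to 123784330. Cd209a, a C-type lectin of the DC-SIGN family found on cDC2 and monocyte-derived cells, lies on chromosome 8 at 3743397 to 3748984. The RefSeq promoter windows of these 3 are shown because Siglech and Ccr9 are the plasmacytoid pair, while Siglech and Cd209a are the members called lower after PCB-153. Each window runs from 250 bases before to 50 after the RefSeq start in build GRCm38.p6, read 5′ to 3′ on the gene's strand: chr7:55767934-55768233 on the plus strand, chr9:123766961-123767260 on the plus strand and chr8:3748935-3749234 on the minus strand. Capitals mark the E-box CAGGTG or its reverse complement CACCTG, a core read by E proteins such as Tcf4, the regulator of plasmacytoid identity.
Siglech: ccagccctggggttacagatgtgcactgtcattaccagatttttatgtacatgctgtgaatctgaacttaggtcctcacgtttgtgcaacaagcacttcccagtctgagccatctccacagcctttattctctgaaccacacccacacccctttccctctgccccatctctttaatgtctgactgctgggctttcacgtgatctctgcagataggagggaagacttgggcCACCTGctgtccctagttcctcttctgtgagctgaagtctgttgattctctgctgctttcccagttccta
Ccr9: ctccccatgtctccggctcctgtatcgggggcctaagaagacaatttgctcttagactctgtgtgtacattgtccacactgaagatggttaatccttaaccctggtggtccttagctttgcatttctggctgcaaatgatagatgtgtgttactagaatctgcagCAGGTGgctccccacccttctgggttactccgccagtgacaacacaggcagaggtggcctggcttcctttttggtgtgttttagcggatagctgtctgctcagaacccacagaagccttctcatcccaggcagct
Cd209a: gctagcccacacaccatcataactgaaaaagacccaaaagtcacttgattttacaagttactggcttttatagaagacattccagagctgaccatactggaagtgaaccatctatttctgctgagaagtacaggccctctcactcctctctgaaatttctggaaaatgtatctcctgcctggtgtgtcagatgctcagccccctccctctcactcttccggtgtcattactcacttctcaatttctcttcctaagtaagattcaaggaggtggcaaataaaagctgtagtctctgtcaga
The windows of 9 members matched by symbol. On either strand, CAGGTG stood in 3 of the 9, Siglech at -20, Ccr9 at -85 and Zbtb46 at -238 from the start, against 20.2% of all 32851 promoter windows of that length. The AP-1 letters TGANTCA stood in Itgax at -56 and Zbtb46 at -61, against 7.81% of all windows. The Zbtb46 window, chr2:181424339-181424638 on the minus strand, lies inside the annotated gene, which begins at 181459426 on that strand. The Ccr9 window also lies inside its annotated gene. Whether these windows act as promoters was not tested. The ETS letters AGGAAGT, found in 9.35% of all windows, were in none of the 9. These searches were for letters only, and the motifs do not overlap each other in the 3 windows printed.

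**Figure D1:**
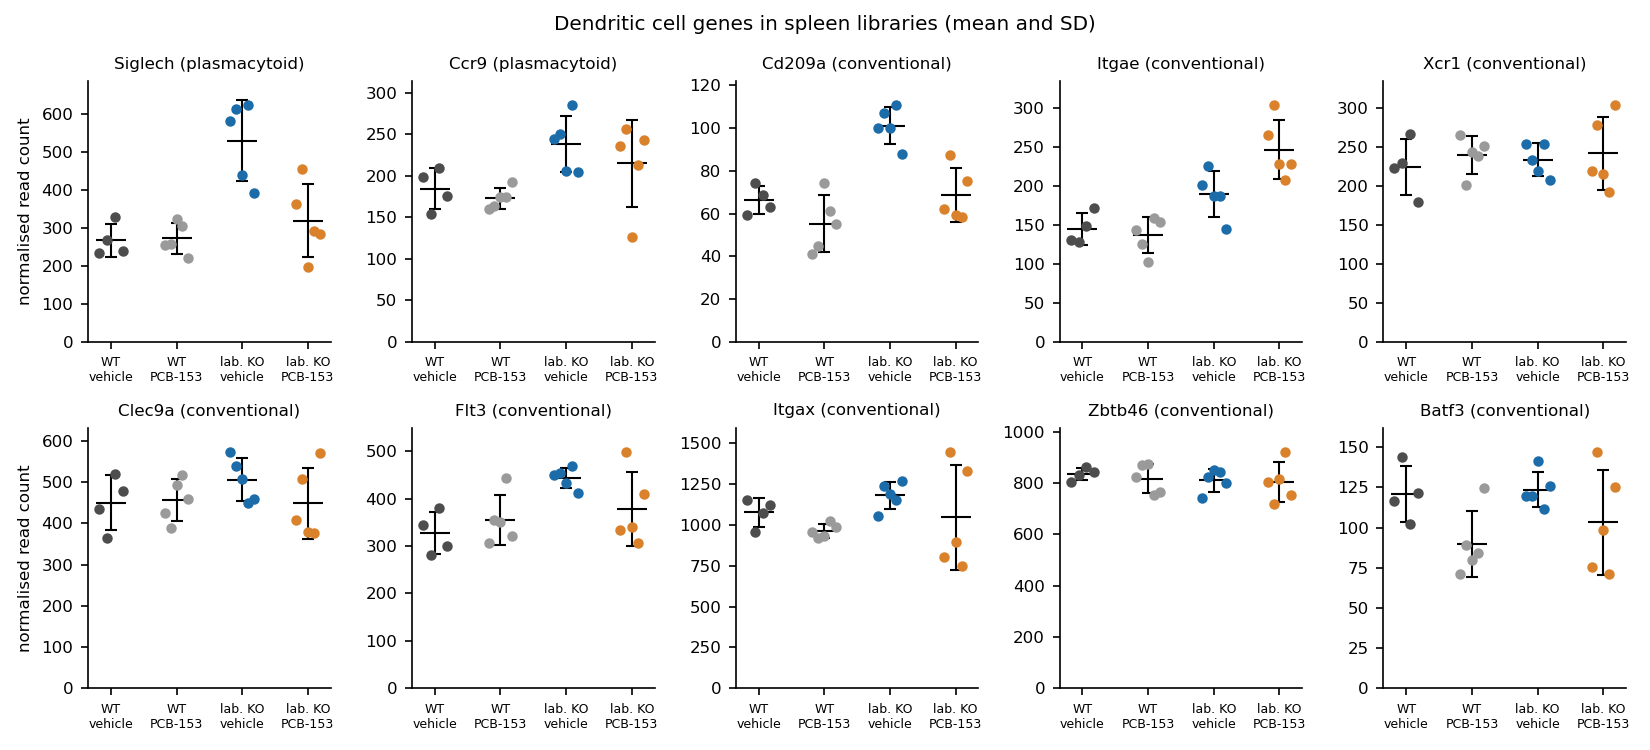
Normalised read count (y axis, from 0) of each of the 10 genes in every spleen library (points), by group (x axis, lab. KO for labelled knockout), with the mean (long bar) and SD (caps); n = 4 in wild-type vehicle and 5 in each other group. The highest group mean is that of labelled-knockout vehicle for Siglech, Ccr9, Cd209a, Clec9a, Flt3, Itgax and Batf3. For Itgae and Xcr1 it is that of labelled-knockout PCB-153, and Zbtb46 lies between 718 and 923 in every library.

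Siglech had its highest group mean in the labelled-knockout spleens given vehicle. Its normalised counts were 234, 267, 330 and 238 in wild-type vehicle, 256, 259, 325, 304 and 222 in wild-type PCB-153, 582, 613, 441, 624 and 391.8 in labelled-knockout vehicle, and 362, 455, 198, 293 and 285 in labelled-knockout PCB-153. All 5 labelled-knockout vehicle libraries lay above all 9 wild-type libraries, while the labelled-knockout PCB-153 libraries reached from below the lowest wild-type value to above 2 of the vehicle libraries of their own genotype. The group means were 267 ± 44.1, 273 ± 41.2, 530 ± 107 and 319 ± 96.1 (SD; n = 4, 5, 5 and 5).

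Siglech fell with PCB-153 in the labelled-knockout spleens, by 0.76 ± 0.18 (SE) on the log2 scale in the limma fit, with an adjusted p of 0.0272. Without labelled-knockout PCB-153 replicates 1 and 4 the difference was as large, -0.82, and no longer passed the test (adjusted p = 0.139 in limma); without labelled-knockout vehicle replicate 4 as well it was -0.75 (adjusted p = 0.249). Leaving out any of the vehicle replicates 2 to 5 or the PCB-153 replicates 1, 3 and 4 of this genotype singly also ended the call, with limma adjusted p-values from 0.0528 to 0.0777. In wild type the same exposure gave 0.031 ± 0.19 (limma adjusted p = 0.992), with a 95% interval from -0.36 to 0.42. The difference between the 2 exposure effects, the interaction, was -0.79 ± 0.26 with an unadjusted p of 0.00595 and a limma adjusted p of 0.422, so it did not pass.

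Between genotypes under vehicle, Siglech differed by 0.97 ± 0.19 on the log2 scale, a ratio of 1.97, with a limma adjusted p of 0.0854. The call depended on the tool: DESeq2 on the recovered reads gave an adjusted p of 0.00122 and the authors' deposited table lists 0.99 with an adjusted p of 0.00115, whereas the edgeR quasi-likelihood test did not pass either. Without labelled-knockout vehicle replicate 4, the library with hepatocyte genes, Siglech was at 0.91 (limma adjusted p = 0.334). After PCB-153 the genotypes differed by 0.18 ± 0.18 (limma adjusted p = 0.788). The comparison of genotypes under vehicle and that of exposures in labelled knockout share the 5 labelled-knockout vehicle libraries.

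Ccr9, the other plasmacytoid marker, did not pass in any comparison. It had 199, 155, 209 and 175 normalised counts in wild-type vehicle, 160, 164, 175, 174 and 193 in wild-type PCB-153, 244, 250, 206, 285 and 205 in labelled-knockout vehicle, and 236, 257, 126, 213 and 243 in labelled-knockout PCB-153. The groups overlap except that the labelled-knockout vehicle libraries all lie above the wild-type PCB-153 ones, a pair that differs in genotype and exposure at once; replicate 3 of labelled-knockout PCB-153 is the lowest library of all 19 and is also the lowest for Siglech. The fitted differences were 0.37 ± 0.16 between genotypes under vehicle (limma adjusted p = 0.448) and -0.18 ± 0.15 for PCB-153 in labelled knockout (limma adjusted p = 0.494). The annotated Ccr9 gene overlaps the gene AC165425.1 on the opposite strand over 18.8% of its exon bases, and whether reads were counted by strand was not stated, so part of its reads cannot be assigned with certainty.

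Among the conventional markers, Cd209a fell with PCB-153 in labelled knockout. Its normalised counts were 59.4, 74.1, 68.8 and 62.9 in wild-type vehicle, 41.3, 44.7, 74.3, 61.3 and 55.1 in wild-type PCB-153, 100.1, 107, 100.1, 111 and 87.8 in labelled-knockout vehicle, and 62.3, 87.6, 59.2, 58.3 and 75.4 in labelled-knockout PCB-153. The 5 labelled-knockout vehicle libraries lie above the 14 others, the nearest being 87.6 in labelled-knockout PCB-153 replicate 2. The decrease was by 0.57 ± 0.15 on the log2 scale (limma adjusted p = 0.0361). It was -0.46 with a limma adjusted p of 0.261 without the 2 libraries with pancreas genes, and -0.42 with 0.390 when the library with hepatocyte genes was also left out. The same single libraries that ended the Siglech call ended this one, with limma adjusted p-values up to 0.09999.

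Cd209a did not pass between genotypes: 0.60 ± 0.16 under vehicle (limma adjusted p = 0.302), although the ranges do not overlap, and 0.32 ± 0.15 after PCB-153 (limma adjusted p = 0.453). In wild type PCB-153 gave -0.28 ± 0.16 (limma adjusted p = 0.943), and the interaction was -0.28 ± 0.22 (limma adjusted p = 0.680). The size of the Cd209a exposure effect was therefore not shown to differ between genotypes.

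Itgae encodes CD103, the alpha chain that pairs with Itgb7 and binds E-cadherin; it is carried by many cDC1 and also by T cells in epithelia. It was higher in labelled knockout than in wild type after PCB-153. Its normalised counts were 143, 126, 102, 159 and 153.1 in wild-type PCB-153 against 265, 303, 228, 207 and 228 in labelled-knockout PCB-153, so every library of the second group lay above every library of the first. The rise was 0.85 ± 0.14 on the log2 scale, a ratio of 1.80 (limma adjusted p = 0.00788), and it passed under every alternative run for it; with each library left out in turn the adjusted p ran from 0.0039 to 0.0365. Without the 2 pancreas libraries Itgae was at 0.89 (limma adjusted p = 0.0154). The authors' deposited table lists the same contrast at 0.85 with an adjusted p of 1.97e-06.

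Under vehicle Itgae had 131, 127, 149 and 172 normalised counts in wild type and 201, 226, 187, 187 and 145 in labelled knockout. Those ranges overlap through labelled-knockout replicate 5, and the fitted difference of 0.38 ± 0.15 did not pass (limma adjusted p = 0.398). PCB-153 gave 0.38 ± 0.14 in labelled knockout (limma adjusted p = 0.0994) and -0.09 ± 0.15 in wild type (limma adjusted p = 0.945), and the interaction of 0.47 ± 0.20 had a limma adjusted p of 0.465. Of the partners, Itgb7 differed by -0.08 ± 0.12 between genotypes after PCB-153 (limma adjusted p = 0.875) and Cdh1, which encodes E-cadherin, by 0.47 ± 0.28 (limma adjusted p = 0.578). The T cell list, since T cells can carry Itgae, had 10 of 10 genes below 0 in that comparison with 0 called in limma, edgeR or DESeq2 and a median of -0.18, beside a median of -0.0038 over all genes tested. Its summed counts were 5824 to 6879 in wild-type PCB-153 and 4399 to 7165 in labelled-knockout PCB-153, and Cd8a differed by -0.07 ± 0.13 (limma adjusted p = 0.914). Other lists also lay to 1 side there, with 0 genes called in limma: 8 of 8 B cell genes below 0 (median -0.42, 2 called lower with DESeq2), 13 of 13 macrophage genes above 0 (median 0.23, 1 called higher with DESeq2) and 8 of 8 pancreas genes above 0 (median 4.73, 8 called higher with DESeq2 and 1 with edgeR). Their part in the Itgae value was not tested, beyond its size without the 2 pancreas libraries.

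The 2 surface receptors most specific to cDC1 did not pass in any comparison. Xcr1, the receptor for the chemokine Xcl1, had group means of 225 ± 35.7, 240.0 ± 23.9, 234 ± 20.8 and 242 ± 47.2 normalised counts in wild-type vehicle, wild-type PCB-153, labelled-knockout vehicle and labelled-knockout PCB-153 (SD; n = 4, 5, 5 and 5). Clec9a, a receptor for actin exposed on dead cells, had 450.3 ± 66.5, 457 ± 51.5, 506 ± 52.2 and 449 ± 86.4 in the same order. For Xcr1 the 95% interval of the genotype difference under vehicle ran from -0.20 to 0.34 on the log2 scale and that of the PCB-153 effect in labelled knockout from -0.23 to 0.29, so that changes of the size fitted for Siglech lie outside both. For Clec9a the corresponding intervals ran from -0.09 to 0.44 and from -0.44 to 0.06. Clec9a shares 4.02% of its 50-base words with other genes, of which Clec1b, its neighbour on chromosome 6, shares the most.

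Batf3 and Zbtb46 encode transcription factors, Batf3 being needed for cDC1 development and Zbtb46 being expressed in conventional dendritic cells but also in endothelium. Batf3 had 121 ± 17.4, 89.9 ± 20.6, 124 ± 11.2 and 103 ± 32.7 normalised counts in the same order of groups, and its lowest unadjusted p was 0.0290, for PCB-153 in wild type (-0.44 ± 0.19, limma adjusted p = 0.943). Zbtb46 was the steadiest of the 10, with group means of 836 ± 25.2, 818 ± 55.8, 812 ± 44.5 and 803 ± 77.9, a ratio of 1.041 between the highest and the lowest. Its intervals reached no further than -0.20 and 0.13 on the log2 scale in the 4 comparisons of 2 groups.

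Flt3, the cytokine receptor of dendritic cell progenitors and their descendants, had 345, 282, 381 and 299.97 normalised counts in wild-type vehicle and 450.0, 453, 433, 468 and 412 in labelled-knockout vehicle. These ranges do not overlap, yet the difference of 0.45 ± 0.13 did not pass (limma adjusted p = 0.347). Flt3 had 306, 354, 351, 443 and 321 in wild-type PCB-153 and 334, 499, 340, 306 and 410 in labelled-knockout PCB-153, where replicate 2 is the highest of all libraries. PCB-153 gave -0.25 ± 0.12 in labelled knockout (limma adjusted p = 0.206), and this passed only without that replicate (limma adjusted p = 0.0256).

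Itgax, the CD11c integrin chain shared by dendritic cells and some macrophages, had group means of 1076 ± 86.5, 964 ± 41.9, 1180 ± 85.2 and 1046 ± 321 normalised counts. The last group was split, with 1448 and 1333 in replicates 2 and 5 and 804, 893 and 751 in replicates 1, 3 and 4. PCB-153 gave -0.22 ± 0.14 in labelled knockout (limma adjusted p = 0.316); without replicate 2 the limma adjusted p was 0.0367, and without the pancreas libraries 1 and 4 the difference was 0.026 with the opposite sign. Itgax shares 8.02% of its 50-base words with other genes, of which Itgad, its paralog, shares the most.

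**Figure D2:**
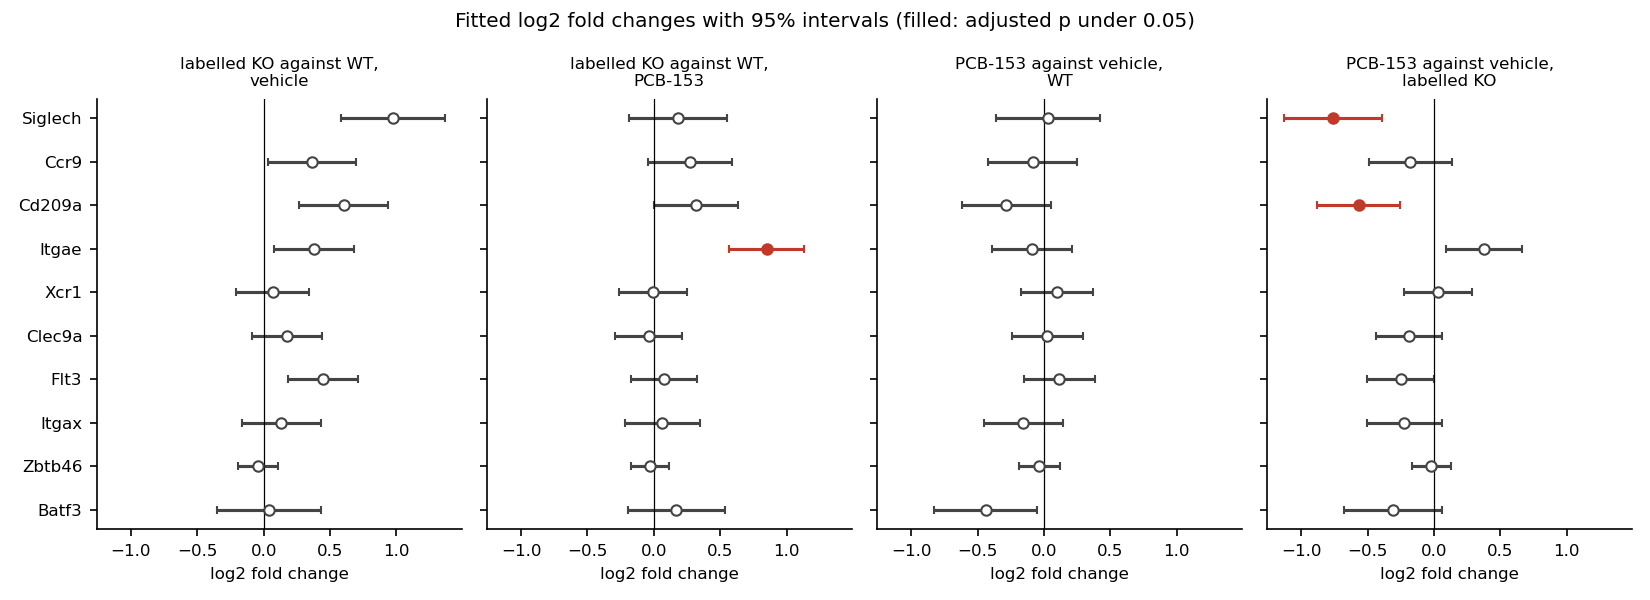
Fitted log2 fold change (x axis) of each gene (rows) in the 4 comparisons of 2 groups, with 95% intervals from the limma fit over 19 spleen libraries; filled red points have an adjusted p under 0.05. Itgae is filled after PCB-153 between genotypes, Siglech and Cd209a are filled for PCB-153 in labelled knockout, and no point is filled in the other 2 panels.

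Counted over the 10 members, PCB-153 in wild type changed 0 (limma; 1 at an unadjusted p under 0.05, 0 with edgeR and 0 with DESeq2), where 0% of all 19058 genes tested were called and 3.81% had an unadjusted p under 0.05. In labelled knockout 2 fell and 0 rose, where 5.3% of all genes were called and 2.52% called lower, and 1 member, Cd209a, had non-overlapping ranges against a background of 2.81%; 4 members had an unadjusted p under 0.05, beside 24.1% of all genes. Over all genes this comparison called 530 higher and 480 lower, a split that became 362 and 498 under quantile normalisation; without the 2 pancreas libraries 25 genes were called in all and 0 of the members. The limma median over the 10 members was -0.21 beside -0.0079 over all genes.

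Between genotypes under vehicle 0 members were called (limma; 5 at an unadjusted p under 0.05, 0 with edgeR and 1, Siglech, with DESeq2), with 0.0315% of all genes called and 10.5% at an unadjusted p under 0.05. Siglech, Cd209a and Flt3 had non-overlapping ranges there, all higher in labelled knockout, where 1.74% of all genes did so in that direction. After PCB-153 1 member rose, Itgae, with 0.0787% of all genes called higher, and its ranges did not overlap, against 1.25%. For the interaction 0 members were called (limma; 3, Siglech, Itgae and Flt3, at an unadjusted p under 0.05, 0 with edgeR and 0 with DESeq2) and 0% of all genes, with 9.85% of them at an unadjusted p under 0.05. Medians over the members were 0.27 under vehicle and 0.12 after PCB-153, beside 0.0076 and -0.0038 over all genes.

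**Figure D3:**
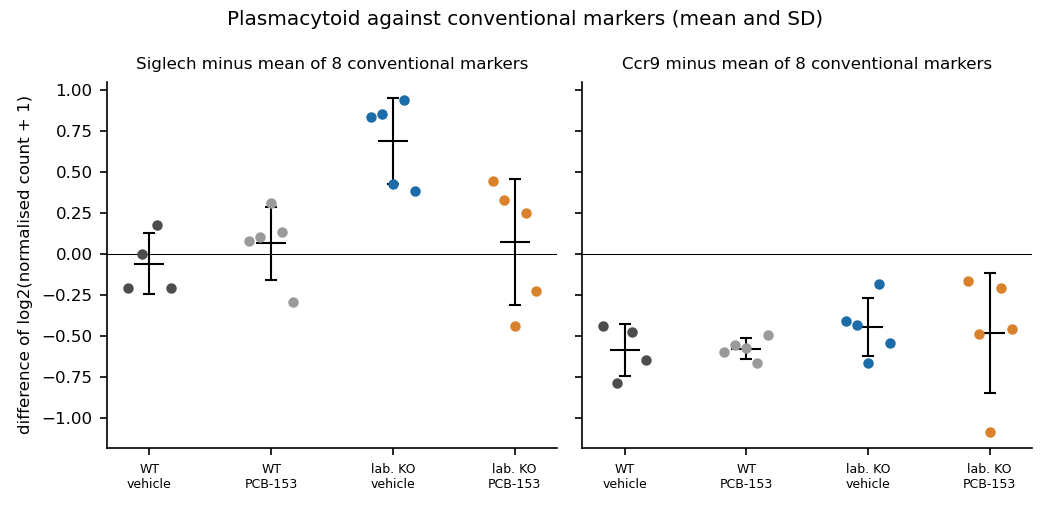
Log2(normalised count + 1) of Siglech (left) and Ccr9 (right) minus the mean of the 8 conventional markers (y axis) in each spleen library (points), with the group mean and SD. For Siglech the 5 labelled-knockout vehicle libraries lie between 0.39 and 0.94, above every wild-type library, while for Ccr9 the 4 groups overlap.

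Set against the conventional markers, Siglech and Ccr9 did not take the same pattern. Siglech minus the mean of the 8 conventional markers, on the log2(value + 1) scale, was -0.06 ± 0.19 in wild-type vehicle, 0.07 ± 0.22 in wild-type PCB-153, 0.69 ± 0.26 in labelled-knockout vehicle and 0.07 ± 0.39 in labelled-knockout PCB-153 (SD; n = 4, 5, 5 and 5). Ccr9 minus the same mean was -0.59 ± 0.16, -0.58 ± 0.06, -0.45 ± 0.18 and -0.48 ± 0.37, and its groups overlap. The mean of both plasmacytoid markers minus the conventional mean was -0.32 ± 0.12, -0.25 ± 0.10, 0.12 ± 0.21 and -0.20 ± 0.36. The labelled-knockout vehicle values, from -0.12 to 0.38, lay above all wild-type values, of which the highest was -0.13, so the offset rests on Siglech. These are descriptions of differences between genes within a library. The conventional mean includes Flt3, which is not limited to conventional cells, and was not recomputed without Flt3. In whole spleen, fewer cells of a type and less RNA per cell cannot be told apart. Which cells carried the Siglech reads was not tested.

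Of the other dendritic cell genes, limma made calls in 1 comparison. Over all 19058 genes tested it called 530 higher and 480 lower there (2.52% lower, and 5.3% in either direction). In PCB-153 against vehicle in labelled knockout, 3 of 13 other plasmacytoid genes fell and 0 rose: Ly6d from 2601 ± 245 to 1796 ± 429 normalised counts (log2 fold change -0.56, limma adjusted p = 0.0260), Spib from 5412 ± 686 to 3700 ± 1062 (-0.59, 0.0279) and Tcf4 from 1439 ± 52.4 to 1122 ± 145 (-0.37, 0.0428; SD, n = 5 each). Spib and Tcf4 encode regulators of plasmacytoid cells, Ly6d marks early lymphoid cells, and all 3 are also expressed in B cells. The median over the 13 was -0.28. In the same comparison 1 of 13 other cDC1 genes rose, Snx22, by 0.35 ± 0.08 (limma adjusted p = 0.0263), and 1 of 10 other cDC2 genes fell, the receptor Notch2, by 0.37 ± 0.09 (limma adjusted p = 0.0279). Of 9 tested genes of mature dendritic cells 2 fell, the amino acid oxidase Il4i1 by 0.45 ± 0.11 (limma adjusted p = 0.0309) and the costimulatory ligand Cd86 by 0.30 ± 0.08 (limma adjusted p = 0.0424).

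Of 10 antigen presentation genes 0 were called in that comparison by limma, edgeR or DESeq2. All 10 fitted values were below 0, beside 51.3% of all genes, 8 had an unadjusted p under 0.05, beside 24.1% of all genes, and the median was -0.29. All 8 B cell genes were also below 0 there, with a median of -0.57. Which cells carried the reads of the antigen presentation genes, of Notch2, Il4i1 or Cd86 was not tested. Of 13 tested ligands, partners and growth factors 0 were called by any of the 3 tools and 2 had an unadjusted p under 0.05, with all 13 below 0 and a median of -0.20; Flt3l, the Flt3 ligand, was at -0.17 ± 0.08 (limma adjusted p = 0.218), Ccl25 at -0.26 ± 0.15 (0.312), Xcl1 at -0.25 ± 0.28 (0.600) and Tyrobp, the adaptor of Siglech, at -0.13 ± 0.10 (0.443). Without the 2 pancreas libraries 0 genes of these 6 lists were called in this comparison, with medians from -0.15 for the other plasmacytoid genes to 0.08 for the other cDC1 genes. In wild-type exposure, in both comparisons of genotypes and in the interaction, 0 genes of these 6 lists were called in limma over all libraries; DESeq2 called 1 other cDC2 gene higher between genotypes under vehicle and 1 other plasmacytoid gene higher between genotypes after PCB-153. Between genotypes under vehicle 11 of the 13 other plasmacytoid genes were above 0 and 2 below, with a median of 0.11. Of the 13, 4 had an unadjusted p under 0.05, beside 10.5% of all genes. After PCB-153 5 were above 0 and 8 below, with a median of -0.12.

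**Figure D4:**
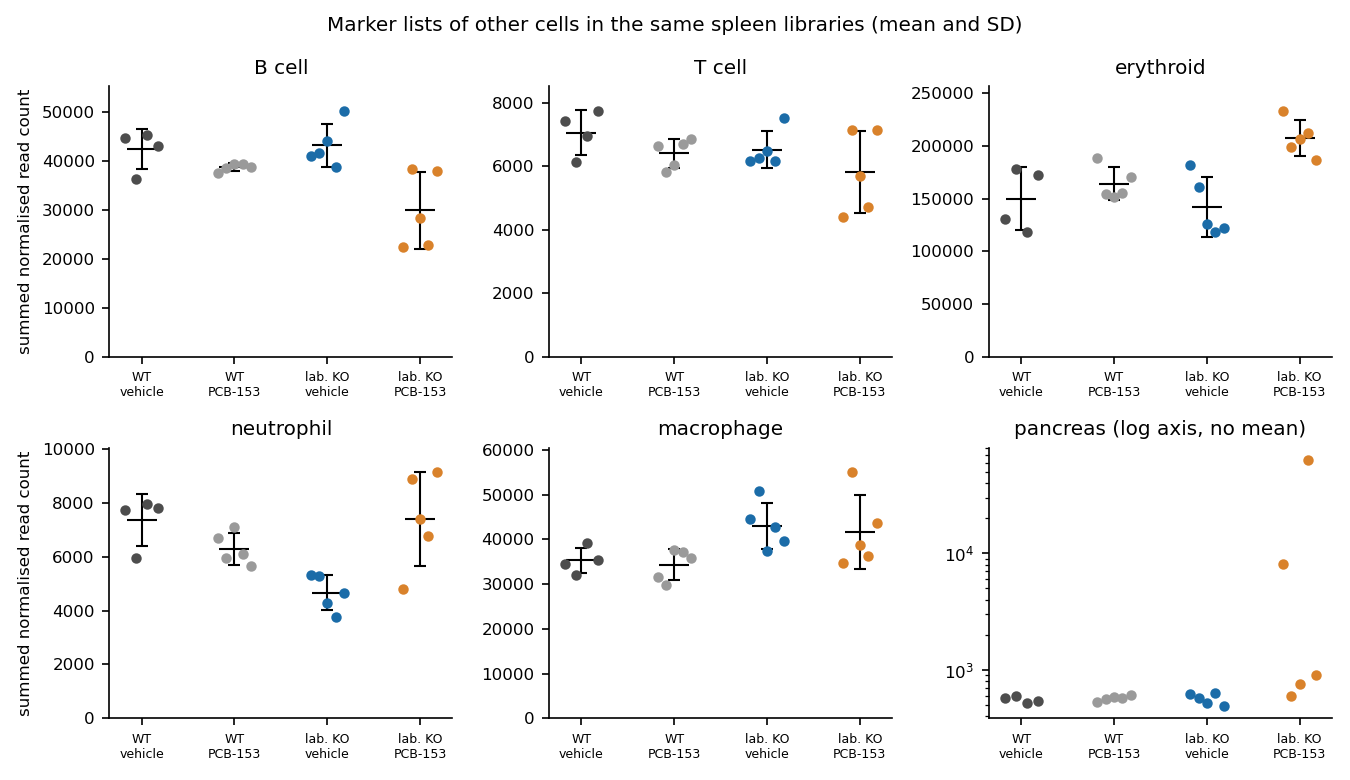
Summed normalised read count of the marker lists of B cells, T cells, erythroid cells, neutrophils, macrophages and pancreas (y axis; log axis for pancreas) in each spleen library (points) with the group mean and SD, except for pancreas. In labelled-knockout PCB-153 the B cell sums run from 22356 to 38338, below the range of labelled-knockout vehicle, and 2 libraries stand above 5000 for pancreas.

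Markers of other cells moved in the comparison in which Siglech and Cd209a fell, where limma called 5.3% of all genes and 2.52% lower. Of 8 B cell genes 6 fell and 0 rose, with a median of -0.57; their summed counts were 38796 to 50338 in labelled-knockout vehicle and 22356 to 38338 in labelled-knockout PCB-153, and Cd79a, a chain of the B cell receptor, went from 6501 ± 758 to 4275 ± 1122. Of 11 neutrophil genes 6 rose (median 0.65) and of 8 erythroid genes 5 rose (median 0.53), S100a8 reaching 1151 ± 186 from 736 ± 149 and Slc4a1 106856 ± 12583 from 71011 ± 15916. Of 13 macrophage genes 1 fell, Cd209b, of 7 monocyte genes Ms4a4c fell and Chil3 rose, and of 7 blood progenitor genes Sox4 fell. Of 8 pancreas genes 2 rose, Cpb1 and Ctrb1, and of 10 T cell, 7 NK cell, 6 plasma cell and 6 hepatocyte genes 0 were called by limma, edgeR or DESeq2 (3, 2, 0 and 0 at an unadjusted p under 0.05, beside 24.1% of all genes). Without the 2 pancreas libraries 0 B cell, 0 erythroid, 0 macrophage and 5 neutrophil genes were called, with a B cell median of -0.32. The part of these markers in the Siglech and Cd209a values was not tested. Between genotypes under vehicle, the comparison with 3 non-overlapping members, all 13 macrophage genes had fitted values above 0 (median 0.26) and 10 of 11 neutrophil genes below 0 (median -0.74), with 0 called in either list by limma or edgeR and 1 macrophage gene called higher and 3 neutrophil genes called lower by DESeq2. Of these genes 7 and 10 had an unadjusted p under 0.05, beside 10.5% of all genes, and 48.1% of all genes were below 0. The part of these macrophage and neutrophil genes was not tested.

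The members also varied among themselves within groups. After each group's mean was taken off the log2(value + 1) values, Siglech and Ccr9 had a Pearson r of 0.72 over the 19 libraries, which placed Ccr9 26th for Siglech and Siglech 21st for Ccr9 among 14911 genes with a mean of at least 50. Flt3 and Itgax had 0.71 and Clec9a and Flt3 0.68, whereas Zbtb46 was negative with each of the 9 others, from -0.15 with Siglech to -0.62 with Itgax. These r values are descriptions: the points share a library's depth, its normalisation and its cell mixture, and the labelled-knockout PCB-153 libraries spread widest for 8 of the 10 members, with a coefficient of variation of 30.16% for Siglech and 30.74% for Itgax.

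By the same measure the 3 genes most like Siglech were Cd209b (0.88), Lair1 (0.85) and Runx2 (0.80), and those like Ccr9 included Lair1 (0.84) and Gpr55 (0.82). Cd209a was nearest to Clec4a2, Por and Fam213b (0.83 to 0.86), and Itgae to Gm44123, Gm20548 and Tmem181c-ps (0.81 to 0.85), predicted genes and a pseudogene. Xcr1 was nearest to Cnrip1, Itpripl2 and Stk17b, Clec9a to Frmd4b, Ago4 and Pard3b, and Flt3 to Tanc2, Coq8a and Tspan3. Itgax was nearest to Pkm, Evl and Vav1 (0.96 to 0.98), Zbtb46 to Gm5844, Nars and Ttc1, and Batf3 to Asap3 and the immunoproteasome subunits Psmb10 and Psmb8 (0.87 to 0.90). Each value is over 19 libraries.

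**Figure D5:**
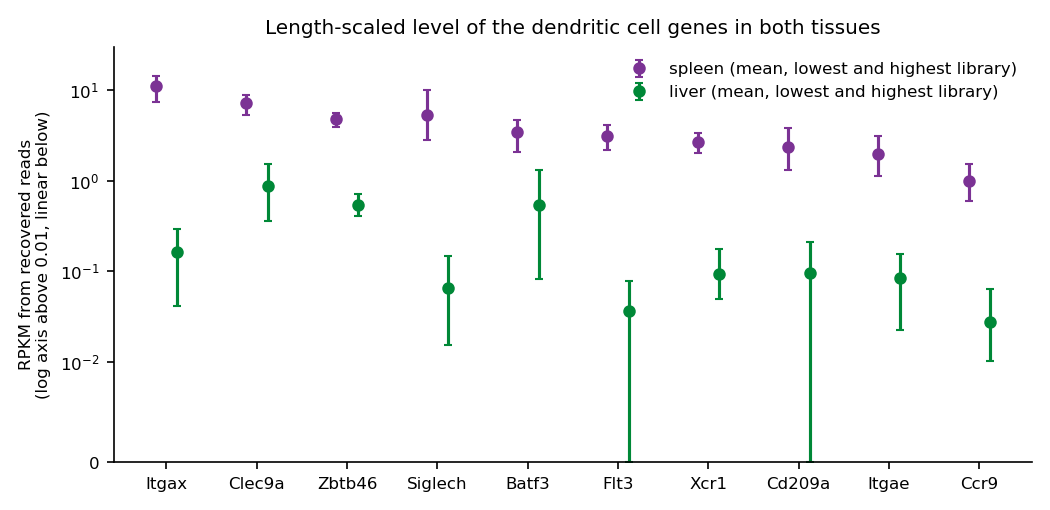
RPKM, reads per kb of exon scaled to the library's total reads (y axis; log above 0.01, linear below so that 0 can be shown) of each gene in spleen and liver, as the mean over all libraries of a tissue (19 and 20) with the lowest and highest library. Each gene's lowest spleen library lies above its highest liver library.

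Per length, the members of a wild-type vehicle spleen were ordered from Itgax at 11.5 ± 1.39 RPKM, computed from the recovered reads and the annotated exon length, over Clec9a at 7.06 ± 1.41, Zbtb46 at 5.05 ± 0.40, Siglech at 4.07 ± 0.86, Batf3 at 3.86 ± 0.32, Flt3 at 2.73 ± 0.54, Xcr1 at 2.602 ± 0.53, Cd209a at 2.15 ± 0.20 and Itgae at 1.62 ± 0.26 to Ccr9 at 0.929 ± 0.177 (SD, n = 4). The ranges of Itgax and Clec9a, of Batf3 and Flt3, of Cd209a and Itgae, and of Itgae and Ccr9 do not overlap, and the other neighbours in the order overlap. The last place of Ccr9 rests on its annotated exon length of 10.26 kb. Its normalised count in these libraries, 185 ± 24.6, was above those of Cd209a (66.3 ± 6.51), Batf3 (121 ± 17.4) and Itgae (145 ± 20.4). In wild-type vehicle liver the same genes had 0.0313 ± 0.00893 (Ccr9) to 0.745 ± 0.341 (Clec9a), with Zbtb46 at 0.539 ± 0.0822 and Batf3 at 0.467 ± 0.311 next (SD, n = 5). The spleen level was 83.3 times the liver level for Itgax, 73.9 times for Flt3 and 51.9 times for Siglech, and 8.27 times for Batf3. The 2 tissues were normalised and sequenced separately, so these ratios carry no test.

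In liver most members rested on few reads. Siglech had 1 to 10 reads in a library, Cd209a 0 to 6 and Flt3 0 to 9, and a mean of 2.72 ± 1.60 to 5.62 ± 2.68 normalised counts per group for Siglech (SD, n = 5). Clec9a, with means of 47.2 ± 21.5 in wild-type vehicle, 51.7 ± 8.22 in wild-type PCB-153, 54.0 ± 16.5 in knockout with vehicle and 63.9 ± 16.2 in knockout with PCB-153, and Zbtb46, with 88.7 ± 12.7, 87.4 ± 8.69, 84.2 ± 8.74 and 84.2 ± 17.8, had the most. For Siglech the authors' deposited liver tables list log2 fold changes of -1.04 ± 0.58 (SE) for PCB-153 in knockout, -0.72 ± 0.61 for PCB-153 in wild type and -0.16 ± 0.64 between genotypes after PCB-153, with adjusted p-values of 1.0 in wild type and 0.978 between genotypes. For PCB-153 in knockout the adjusted p was listed as NA, and no liver value of Siglech between genotypes under vehicle is given here. With standard errors of this size, a liver change as large as the spleen values of Siglech would not be detectable.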

How the data were processed

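Messenger RNA of 19 spleen and 20 liver libraries was sequenced. The authors deposited 1 signal table per tissue, with read counts divided by 1 size factor per library, so whole reads could be recovered (within 0.05 reads). Their DESeq2 tables, as deposited, hold log2 fold changes with standard errors, p-values and a test statistic (a score), and here only members' values were copied from them. STAR 2.6.0, featureCounts, FastQC, DESeq2 (version given as 3.8) and mm10 are named in the submitters' processing notes. Symbols that had become dates, 26 per tissue, were restored from the authors' full tables.

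Genes with a spleen mean of at least 10 (19058) were fitted on log2(value + 1) with limma 3.58.1 (R 4.3.3) in 1 fit over the 4 groups; p-values are two-sided and adjusted by Benjamini-Hochberg over all 19058, with 0.05 as threshold. Fold changes on this scale understate the change of low genes. Alternatives were pseudocounts, filters, quantile normalisation, 2-group fits, the replicate block, each library left out, edgeR 4.0.16 and DESeq2 1.42.0 on recovered reads; omitting the libraries with summed pancreas or hepatocyte markers above 5000 was added after seeing the data. The median standard error was 0.123 to 0.130. Liver values were not tested here.

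The members and lists were chosen with earlier results of these data known. The named genes are the 10 members, Nr1i2, up to 3 called genes of each list per comparison, and the 3 genes most like each member, of which 1 is not reported here; partners, ligands and Cd8a, and the genes of the closing section, are named beyond that rule, after their values were seen. In simulated reads for PCB-153 in labelled knockout (19064 genes) the fit recovered 75% of genes changed by 0.75 and 96% at 1.5, with 11 of 18866 unchanged genes called. The simulated counts were independent between genes, with no pancreas libraries and no shared shifts of cell mixture. These rates therefore need not hold for the real libraries. Positions are from GENCODE M21 (GRCm38), matched by symbol, and promoter windows from RefSeq.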

Additional observations from a re-analysis of the deposited data

Results flagged for a closer look

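One value among the 80 combinations of member, tissue and group with 4 or 5 libraries lay far from the rest of its group. Xcr1 in knockout PCB-153 liver had 10.9043 normalised counts in replicate 3, while the other 4 libraries had 5.72 to 7.08. The gap is past the 95% limit of Dixon's test for 5 samples, a limit that about 1 group in 20 passes by chance. The value rests on 11 reads or fewer.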

How the results depend on the processing

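Of 1490 alternative values for the 50 member log2 fold changes, 1400 kept their direction and their side of the threshold, 21 lost the call, 8 gained one and 61, in 20 results of at most 0.224 in size, changed sign. The causes were not tested, except that fits with fewer libraries have fewer samples.

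The number of members called for PCB-153 in labelled knockout was 2, and became 1 with no filter on low values, 0 in the 2-group fit, 0 without the 2 pancreas libraries and 0 without these and the hepatocyte library; with each library left out it ran from 0 to 4, the highest without labelled-knockout PCB-153 replicate 2. Siglech in that comparison ran from -0.90 to -0.60 with each library left out, with a limma adjusted p of 0.0658 in the 2-group fit, and Cd209a lost its call in that fit (0.0556) and with no filter (0.0695). Under vehicle 0 members were called between genotypes, 1 in the 2-group fit, 1 with DESeq2 and 0 to 1 with each library left out; the call, Siglech, came without wild-type vehicle replicate 4, labelled-knockout vehicle replicate 5 or labelled-knockout PCB-153 replicates 2 or 3. Over all genes, PCB-153 in labelled knockout called 1010, against 232 with no filter, 184 in the 2-group fit, 2027 with DESeq2, 25 without the pancreas libraries, 18 without the hepatocyte library as well, and 10 (without labelled-knockout PCB-153 replicate 4) to 3702 (without replicate 2) with each library left out. Between genotypes 6 genes under vehicle became 3 at a mean of at least 50, 10 with edgeR and 23 with DESeq2, and 30 after PCB-153 became 14 in the 2-group fit, 215 with DESeq2, 83 without the pancreas libraries and 68 without the hepatocyte library as well. In wild type 0 became 3 and for the interaction 0 became 31 with DESeq2, and the latter 6 without the pancreas libraries.

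Replicate numbers showed no clear pairing of the libraries: over 27 same-number pairs the correlation of deviations ran from -0.23 to 0.27, and 9 were over 0.1. The median was 0.064, against -0.0056 for pairs with other numbers, and 5 of 19 libraries correlated best with their own number. Correlations of this kind cannot show that no pairing existed. With the replicate block the call count after PCB-153 between genotypes went from 30 to 18, Siglech for PCB-153 in wild type went to -0.031 and Batf3 between genotypes under vehicle to -0.0067. Batf3 went to -0.019 under quantile normalisation.

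Xcr1 after PCB-153 between genotypes was 0.0013 under quantile normalisation, 0.0084 with edgeR, 0.014 with DESeq2 and 0.14 without the pancreas libraries or these and the hepatocyte library, where Clec9a was 0.074. Without the pancreas libraries, and then without the hepatocyte library as well, Itgax was 0.026 and 0.017 for PCB-153 in labelled knockout, and the interactions were 0.073 and 0.10 for Xcr1, 0.18 and 0.17 for Itgax and -0.057 and -0.042 for Zbtb46, the last also -0.0026 with edgeR.

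With each library left out in turn, signs changed in these ranges. For PCB-153 in wild type Siglech ran from -0.034 to 0.14, Itgae from -0.15 to 0.0085, Xcr1 from -0.00088 to 0.19 and Clec9a from -0.070 to 0.10. For PCB-153 in labelled knockout Ccr9 ran from -0.25 to 0.0027, Xcr1 from -0.057 to 0.11 and Zbtb46 from -0.071 to 0.019. Between genotypes under vehicle Xcr1 ran from -0.036 to 0.15 and Batf3 from -0.039 to 0.13. Between genotypes after PCB-153 Xcr1 ran from -0.091 to 0.074, Clec9a from -0.13 to 0.018, Flt3 from -0.027 to 0.16, Itgax from -0.066 to 0.17 and Zbtb46 from -0.080 to 0.010. For the interaction Ccr9 ran from -0.17 to 0.087, Xcr1 from -0.16 to 0.032, Itgax from -0.20 to 0.037, Zbtb46 from -0.037 to 0.053 and Batf3 from -0.0090 to 0.26.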

Other observations

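Cd209b, the gene most like Siglech within groups, and its neighbour Cd209d are lectins of the same DC-SIGN family as Cd209a; Cd209b marks macrophages of the marginal zone. They were looked at after the values of Cd209a and Siglech were seen. Cd209b had 147 ± 46.2, 121 ± 18.1, 272 ± 55.7 and 160 ± 55.2 normalised counts in wild-type vehicle, wild-type PCB-153, labelled-knockout vehicle and labelled-knockout PCB-153 (SD; n = 4, 5, 5 and 5), and Cd209d had 23.9 ± 5.09, 20.9 ± 4.48, 47.6 ± 13.7 and 24.4 ± 15.5. In both genes labelled-knockout vehicle had the highest mean, as in Siglech and Cd209a, and also in Ccr9, Clec9a, Flt3, Itgax and Batf3. With PCB-153 in labelled knockout Cd209b fell by 0.81 ± 0.20 on the log2 scale (limma adjusted p = 0.0309), and Cd209d was at -1.10 ± 0.32 (limma adjusted p = 0.0502). Cd209d passed in 6 of 29 alternatives, with an adjusted p of 0.0274 with DESeq2 and 0.00382 without labelled-knockout PCB-153 replicate 2. Without the 2 pancreas libraries Cd209b was at -0.76 (limma adjusted p = 0.176) and Cd209d at -1.16 (limma adjusted p = 0.207). Under vehicle the genotypes differed by 0.90 ± 0.22 for Cd209b (limma adjusted p = 0.239) and 0.94 ± 0.34 for Cd209d (limma adjusted p = 0.388), and neither passed over all libraries; Cd209b passed without wild-type vehicle replicate 4 (limma adjusted p = 0.0473). The 2 comparisons share the labelled-knockout vehicle libraries.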
